A study of Mus musculus with 12 samples.

Results

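The genes described here encode the nuclear subunits of respiratory complexes III and IV and of ATP synthase, with the cytochrome c that carries electrons between the complexes. They were taken by symbol: every row whose symbol starts with Uqcr, with Cox4, Cox5, Cox6, Cox7 or Cox8 (other than Cox4nb) or with Atp5, together with Cyc1 and Cycs. This gave 45 of the 23337 genes in the tables: 9 of complex III, 17 of complex IV, 5 of the catalytic F1 head of ATP synthase, 10 of its membrane part and stalks, cytochrome c itself (Cycs), and 3 whose symbols match although they are not subunits of these complexes. Those 3 are Cox7a2l, a factor that joins complex III to other complexes, and Atp5s and Atp5sl, which RefSeq names Dmac2l and Dmac2. In each comparison 43 of the 45 passed the filter on low counts, and Cox7b2 and Cox8c did not.

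Complex III passes electrons from ubiquinol to cytochrome c, complex IV passes them on to oxygen, and both help to build the proton gradient that ATP synthase spends to make ATP. Heart muscle relies on this route for nearly all of its ATP, and its mitochondria fill out in the weeks after birth. Several subunits of complex IV exist in a muscle form and a widely expressed form encoded by separate genes, and the heart moves towards the muscle forms as it matures.

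RNA was measured in cardiomyocytes (CMs) of mice in 4 groups of 3 samples. KO animals were Srf-flox/flox and control (CTRL) animals Srf-flox/+, so both carried a floxed allele of the gene for serum response factor and a CTRL CM kept 1 intact copy after Cre had acted. All animals also carried a fluorescent reporter that Cre switches on (1 of several reporter alleles, by the study's methods), and all received AAV9-cTNT-Cre, a virus that expresses Cre from the cardiac troponin T promoter, at a low dose, so that recombined CMs lay in a mosaic with others. Neonatal pups were injected on day 1 after birth and their CMs taken on day 14 (P14), whereas adult mice were injected on day 60 and their CMs taken on day 90 (P90). Cells with the reporter switched on were sorted, and their polyadenylated RNA was amplified before sequencing. By staining, the paper found that a minority of reporter-positive CMs still held SRF. It proposes that sorting of large CMs was imperfect, so KO libraries may include RNA of cells that kept Srf. The legend of the study's Srf measurements in these sorted CMs counts hearts, so the samples of a group are taken as separate hearts, although the labels only number them. The p-values measure the spread between these samples. Stage, injection day, length of exposure and the table a sample was deposited in go together and cannot be told apart.

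Total counts ranged from 9740389 to 23103460 per library, and the 45 genes took between 3.66% and 6.14% of them. Srf averaged 56.8 CPM (read counts scaled to a common library size) in P14 CTRL and 23.1 in P14 KO (edgeR adjusted p = 0.0628), and 70.5 and 29.9 CPM at P90 (adjusted p = 0.00347), with no overlap between KO and CTRL libraries at either stage. The 6 CM markers examined (such as Tnnt2 and Myh6) summed to between 107780 and 113970 CPM in P14 CTRL and between 62557 and 69840 CPM in P14 KO, where Actc1 and Myh6 passed the edgeR threshold downwards. They summed to between 93341 and 109130 CPM in P90 CTRL and between 78149 and 81837 CPM in P90 KO, where Actc1 passed downwards, and 0 of the 6 were at 0 in any library. In P90 KO the log2 fold changes of Myh6, Actc1 and Ryr2 were negative (-0.44, -0.79 and -0.68). Those of Tnnt2, Tnni3 and Myl2 were positive (0.30, 0.34 and 0.23), so the lower sum was not shared by all 6. Fibroblast markers summed to at most 316 CPM, endothelial markers to at most 374 CPM and leukocyte markers to at most 12.9 CPM in any library, with 0 members of each list called by edgeR in either KO comparison and P14 CTRL library 2 the lowest of its group in all 3 lists (leukocyte markers 4.80 CPM, endothelial 174 CPM and fibroblast 106 CPM). In the smooth muscle and pericyte list Acta2 was lower and Cspg4 higher in P14 KO, and the list summed to between 941 and 1413 CPM in P14 CTRL and between 374 and 582 CPM in P14 KO. Acta2 led this sum, with means of 1088 CPM in P14 CTRL and 298 CPM in P14 KO. Cspg4 averaged 48.1 and 122 CPM. Myh11 and Tagln had positive log2 fold changes (0.22 and 0.18), and Rgs5 and Pdgfrb negative ones (-0.36 and -0.34). Of the 5 red blood cell genes in the tables, 4 were listed at 0 in every library and the list summed to at most 2.39 CPM. The part of these markers in the results below was not tested. CPM are relative to all RNA in a library, so fewer transcripts of a gene per cell, fewer cells of a kind and more RNA from other genes cannot be told apart. The tables hold 0 genes of the mitochondrial chromosome, so the subunits that it encodes were not analysed here.

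Library 2 of P14 CTRL stood apart for these genes. It was the highest of its group for 39 of 43 members, with a median 0.44 above the group mean on the log2 scale, and P14 CTRL library 3 was the lowest for 30 of 43. The same tilt was seen outside the family: the 628 other genes with a summed exon length under 900 bp had a median deviation of 0.26 in that library, against -0.012 for the 12170 longer ones. Within P14 KO, library 3 was the lowest for 38 of 43 members and its other short genes deviated by -0.070. It also had the least Srf of its group, 9.75 CPM against 32.1 and 27.5 CPM in libraries 1 and 2. Whether the 2 go together was not tested. Within P90 KO, library 3 was the lowest for 40 of 43 members and its short genes deviated by -0.19. Most members are short (29 of the 43 under 900 bp), and 14 are 900 bp or longer. The 900 bp limit was chosen after the values were seen. The main P14 results are therefore given with and without P14 CTRL library 2, and beside a fit in which each library's drift with exon length was removed (the length-corrected fit).

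**Figure D1:**
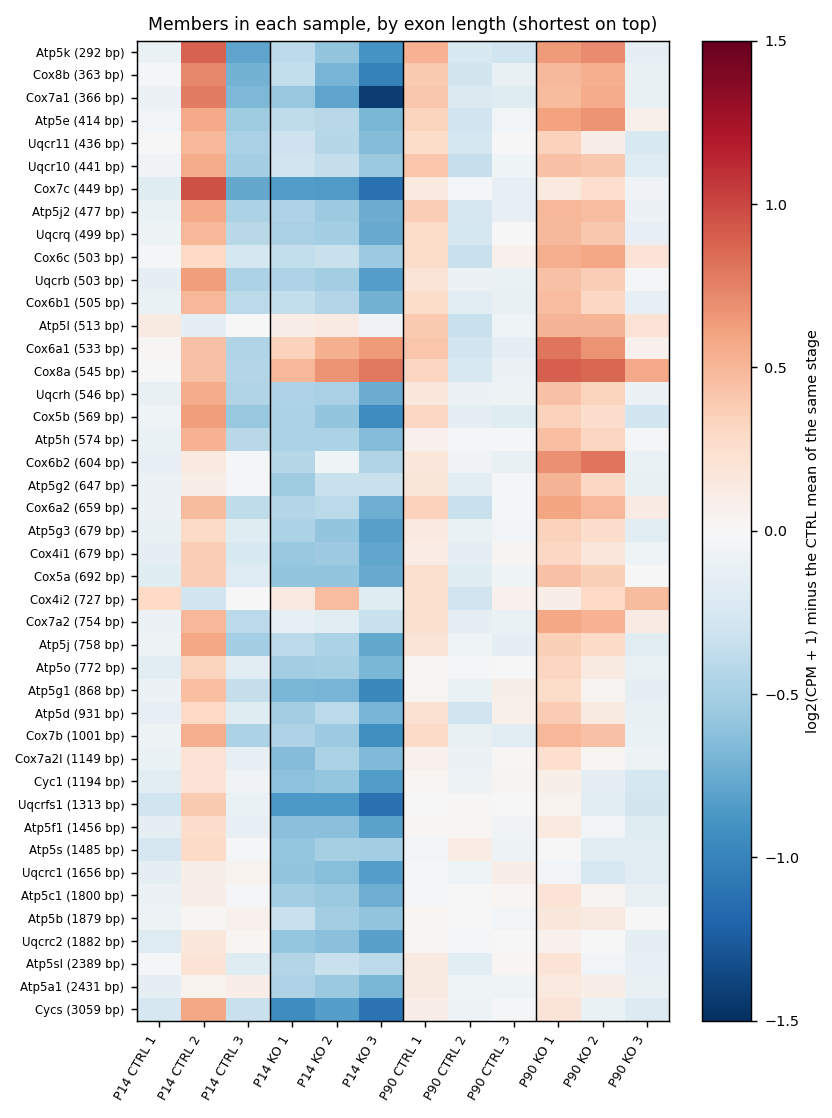
Each row is 1 of the 43 members tested, sorted by summed exon length (bp), and each column a library. Colour gives log2(CPM + 1) minus the CTRL mean of the same stage. P14 KO columns are below the CTRL mean for most members, Cox6a1 and Cox8a are above it, and P14 CTRL library 2 is the highest of its group for 39 of 43 members, most of all for the short ones.

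Levels within the family differed widely. Per kilobase of exon, Atp5b, the catalytic beta subunit, was the most abundant in P14 CTRL at 6403 CPM per kb, followed by Atp5g3, which encodes the proton-carrying c ring subunit, at 4117 CPM per kb. Atp5a1 (2816 CPM per kb), Cox4i1 (2810.0) and the complex III core protein gene Uqcrc1 (2296) came next. Cycs was far lower, at 126 CPM per kb. At the bottom were Cox6b2 and Cox4i2, the second forms of Cox6b1 and Cox4i1, at 1.42 and 1.09 CPM per kb, and Cox7b2 and Cox8c, which reached at most 0.475 and 0.0794 CPM in any library. A floor of 3 counts corresponds to between 0.138 and 0.326 CPM, depending on the library, and covers counting error only.

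The neonatal comparison asked what loss of Srf does while CMs mature. Most members were lower in P14 KO: 39 of 43 had a negative log2 fold change, with a median of -0.62 against 0.0011 over all 12546 genes tested. By edgeR's quasi-likelihood test 12 members fell (adjusted p under 0.05) and 0 rose, where 4.60% of all genes tested were called lower and 3.99% higher. At an unadjusted p under 0.05 there were 33 lower and 1 higher, against 3206 of all 12546 genes in either direction. DESeq2 called 21 lower and 1 higher (Cox8a), where it called 7.89% of all genes lower and 788 of 12671 higher. In the length-corrected fit 14 members were lower and 2 were higher (Cox6a1 and Cox8a), against 654 and 587 of all 12546 genes, and all 12 were among the 14. KO and CTRL libraries did not overlap for 25 members that were lower in KO and 1 that was higher, against 16.7% and 16.0% of all genes tested.

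The 12 calls depended on which libraries were in the fit. Leaving out any 1 of the 3 P14 KO libraries left 0 members called, with 19 to 26 lower at an unadjusted p under 0.05 and 39 or 40 of 43 lower in sign. In those fits between 21 and 79 of all genes were called lower, against 577 with all 6 libraries. Between 2256 and 2618 of all genes had an unadjusted p under 0.05 there, in either direction. Without P14 CTRL library 2, 10 members were called lower (all of them among the 12) and Cox6a1 and Cox8a higher, and the median was -0.37. Without P14 CTRL library 1 the count was 10, with 9 of the 12, and without P14 CTRL library 3 it was 15, with 8 of the 12. Over all genes 431, 522 and 534 were called lower without P14 CTRL library 1, 2 and 3.

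**Figure D2:**
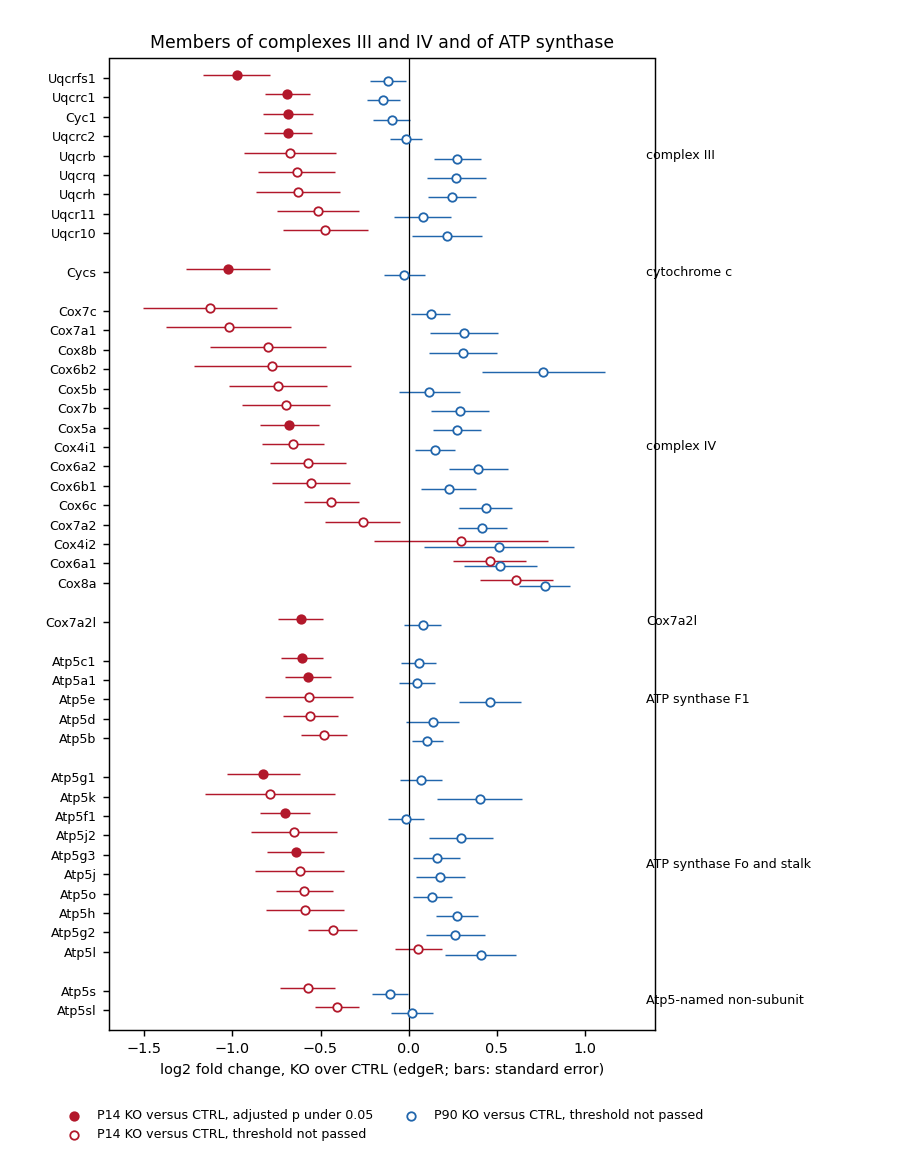
Log2 fold change of KO over CTRL (horizontal axis, bars are standard errors) for the 43 members tested, grouped by complex, at P14 (red) and at P90 (blue). Filled points passed an edgeR adjusted p under 0.05: 12 do at P14, all to the left of 0, and 0 do at P90. Cox8a and Cox6a1 lie to the right of 0 at both stages.

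Complex III was lower throughout: all 9 members had negative values, between -0.98 and -0.47 with a median of -0.68, and 4 of 9 fell. Uqcrfs1, the Rieske iron-sulphur protein that takes electrons from ubiquinol (chr13:30540312-30545316 in mm10), had 1277, 2066 and 1460.3 CPM in the P14 CTRL libraries and 863, 866 and 720.5 CPM in P14 KO. Its 3 KO libraries were all below the lowest CTRL library, and library 2 was the highest of CTRL by far. Its log2 fold change was -0.98 ± 0.19 (SE, adjusted p = 0.0216), and -0.75 without CTRL library 2 (adjusted p = 0.0208, with a range of 3.33e-05 to 0.0913 over 13 alternative settings).

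Cyc1, cytochrome c1, which hands the electron to cytochrome c, had 1753, 2269.9 and 1897 CPM in P14 CTRL and 1278, 1314 and 1101 CPM in P14 KO. The groups did not overlap, and the log2 fold change was -0.69 ± 0.14 (SE, adjusted p = 0.0246). The core protein genes moved by nearly the same amount. Uqcrc1 had 3440.2, 4044 and 3925 CPM in CTRL and 2517, 2445 and 2139.8 CPM in KO, a log2 fold change of -0.69 ± 0.13 (SE, adjusted p = 0.0196). Uqcrc2 had 1095, 1401 and 1281 CPM in CTRL and 837, 811 and 709 CPM in KO, a log2 fold change of -0.68 ± 0.13 (SE, adjusted p = 0.0221). In both, every KO library was below every CTRL library. The 5 small subunits (Uqcrb, Uqcrq, Uqcrh, Uqcr10 and Uqcr11), all with exons of 546 bp or less, had values between -0.68 and -0.47 and none passed, with standard errors between 0.22 and 0.26 against 0.13 for Uqcrc1.

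Cycs, the mobile carrier between complexes III and IV (chr6:50562563-50566474 in mm10), had 309, 552 and 291 CPM in P14 CTRL and 192, 207 and 169.8 CPM in P14 KO. All KO libraries lay below the lowest CTRL library, and CTRL library 2 stood well above the others. Its log2 fold change was -1.02 ± 0.24 (SE, adjusted p = 0.0365), one of the largest among the members, and -0.66 without that library (adjusted p = 0.0183, with a range of 0.000522 to 0.143 over 13 alternative settings). Stretches of the Cycs transcript, 35.0% of its length, match 59 other annotated genes at 95% identity or more over at least 75 bases, and the treatment of reads with several matches is not stated, so its count is uncertain.

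Complex IV was the most mixed. Of its 15 members tested, 12 were lower and 3 higher, with a median of -0.66 and a range from -1.13 to 0.61, and 1 fell. That 1 was Cox5a, a nuclear subunit next to the catalytic core, with 919, 1339.8 and 909 CPM in CTRL and 686, 687 and 615 CPM in KO. Its groups did not overlap, and the log2 fold change was -0.68 ± 0.17 (SE, adjusted p = 0.0446). Cox4i1, which is needed to assemble the complex, was close to it at -0.66 ± 0.17 (SE) with an adjusted p of 0.0541. The largest difference of all members was in Cox7c, a small structural subunit, with 164, 363 and 109 CPM in CTRL and 104, 104 and 85.4 CPM in KO. The groups did not overlap, but CTRL library 2 was the highest by a wide margin, and -1.13 ± 0.38 (SE) did not pass (adjusted p = 0.108). Without that library the value was -0.49 (adjusted p = 0.141, with a range of 0.0246 to 0.298 over 13 alternative settings). Of the remaining structural subunits, Cox5b, Cox7b, Cox6b1 and Cox6c had values of -0.74, -0.70, -0.56 and -0.44, and none passed. The 3 with positive values, Cox8a, Cox6a1 and the barely detected Cox4i2, are second forms of subunits and are described with their partners below.

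ATP synthase was lower in both of its parts. In the F1 head 5 of 5 genes had negative values (median -0.57) and 2 fell: Atp5a1, the alpha subunit, and Atp5c1, the gamma subunit of the rotating shaft. Atp5c1 had 1985, 2271 and 2090.1 CPM in CTRL and 1469, 1433 and 1276 CPM in KO, without overlap, and a log2 fold change of -0.61 ± 0.12 (SE, adjusted p = 0.0221). Atp5a1 was at -0.57 ± 0.13 (SE, adjusted p = 0.0331), and at -0.55 without P14 CTRL library 2, which did not pass (adjusted p = 0.0671, with a range of 0.000338 to 0.147 over 13 alternative settings). Atp5b, the catalytic subunit, was at -0.48 ± 0.13 and Atp5d at -0.56 ± 0.16 (SE), and both missed the threshold (adjusted p = 0.0585 and 0.0626) although their groups did not overlap.

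In the membrane part and stalks 9 of 10 genes had negative values (median -0.63) and 3 fell: Atp5f1, a subunit of the peripheral stalk, and Atp5g1 and Atp5g3, which encode the same c ring protein. Atp5g1 had 843, 1236 and 699.5 CPM in CTRL and 559.8, 554 and 460.0 CPM in KO, without overlap, and a log2 fold change of -0.83 ± 0.21 (SE, adjusted p = 0.0461). Atp5f1 was at -0.70 ± 0.14 (adjusted p = 0.0246) and Atp5g3 at -0.64 ± 0.16 (SE, adjusted p = 0.0479). With CTRL library 2 left out, Atp5g3 was at -0.48 and did not pass (adjusted p = 0.0788, with a range of 0.00321 to 0.168 over 13 alternative settings). The exception in sign was Atp5l, a subunit of the membrane part, with 17.2, 14.2 and 15.6 CPM in CTRL and 16.8, 17.1 and 15.1 CPM in KO, which overlapped (0.055 ± 0.13, SE, adjusted p = 0.85). Atp5k, Atp5j2, Atp5j, Atp5o, Atp5h and Atp5g2 had values between -0.79 and -0.43 and none passed. The Atp5l transcript matches 11 other genes over 86.8% of its length. The Atp5l level of 30.5 CPM per kb was under that of every other membrane or stalk subunit but Atp5g2, so the Atp5l count is uncertain. Near-identical copies also cover 92.0% of the Atp5o transcript, 71.3% of Atp5h, 64.6% of Atp5f1, 42.0% of Cox5a and 37.5% of Atp5c1. Exons of Atp5f1 overlap Wdr77 and exons of Uqcrc2 overlap Pdzd9 on the opposite strand, and the strand setting of the counts is not stated.

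Outside the complexes, Cox7a2l fell as well (-0.61 ± 0.13, SE, adjusted p = 0.025), and Atp5s and Atp5sl were at -0.57 ± 0.16 and -0.41 ± 0.12 (SE, adjusted p = 0.0577 and 0.0798). The medians of the parts were near each other: -0.68 for complex III, -0.66 for complex IV, -0.57 for F1 and -0.63 for the membrane part and stalks. As sums of CPM, P14 KO reached 0.616 of CTRL for complex III, 0.682 for complex IV, 0.697 for F1 and 0.637 for the rest of ATP synthase, and 0.681, 0.821, 0.710 and 0.741 in the same order without P14 CTRL library 2. These sums are led by the most abundant genes and carry no test.

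Calls were more frequent among long members. Of the 14 members of 900 bp or more, 9 fell, and of the 29 shorter ones, 3, where 4.60% of all genes tested of any length were called lower. Calls over all genes were not split by length, so whether this pattern is particular to the members was not tested. Their median log2 fold changes were close (-0.65 and -0.62), while the median standard error was 0.14 for the long and 0.22 for the short. Across the 43 members, which share the libraries, standard error and exon length had a Spearman rho of -0.655. Correction for length moved all 29 short members upwards, 4 of them (Cox8a, Cox6a1, Atp5l and Cox4i2) farther from 0. It also moved 13 of the 14 long ones upwards. The median over all members was -0.39 in the length-corrected fit and -0.31 when P14 CTRL library 2 was also left out. In the latter fit 10 members were called lower, 9 of them among the 12, and 2 higher, against 533 and 511 of all 12796 genes.

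**Figure D3:**
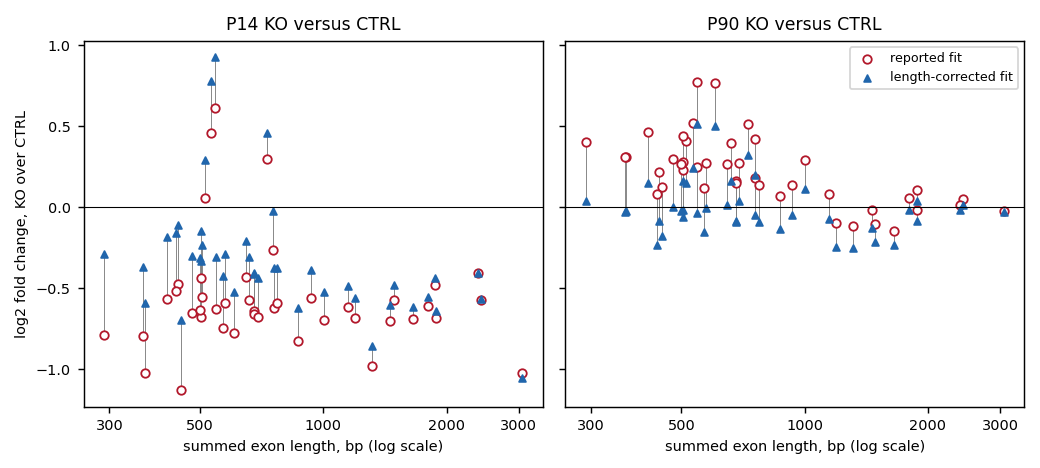
Log2 fold change of KO over CTRL against summed exon length (bp, log scale) for the 43 members tested, at P14 and at P90. Open circles are the reported fit and triangles the length-corrected fit, joined by a line for each gene. At P14 all 29 members under 900 bp move up by different amounts. Of the 14 longer ones 13 move up and 1 moves down, and all 14 stay below 0. At P90 all 29 shorter members move down, 16 of them past 0, and all 14 longer ones move down, 4 of them past 0.

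The adult comparison asked what the same loss does in CMs that have already matured. By edgeR 0 of 43 members were called in either direction at P90, where 0.152% of all genes tested were called lower and 0.237% higher. At an unadjusted p under 0.05 there were 0 lower and 7 higher of the 43. That share was near the one over all genes, 1910 of 11808 in either direction. DESeq2 called 0 lower and 1 higher (Cox8a) of the 41 members to which it gave an adjusted p, against 184 lower and 167 higher of 8910 genes. EdgeR without the filter on low counts called 0 lower and 7 higher, against 343 and 358 of 19496 genes. The median log2 fold change was 0.22, with 36 values above 0 and 7 below, against 0.0057 over all genes. KO and CTRL did not overlap for 0 members that were lower in KO and 1 that was higher, against 11.2% and 10.3% of all genes. In the length-corrected fit the median was -0.022 and 20 of 43 members changed sign, 0 of them called in either fit.

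By complex the adult medians were 0.079 for complex III, 0.31 for complex IV, 0.11 for F1 and 0.22 for the membrane part and stalks. As sums of CPM, P90 KO stood at 0.977 of CTRL for complex III, 1.22 for complex IV, 1.06 for F1 and 1.10 for the rest of ATP synthase. All 15 complex IV values were above 0, as were all 29 of members under 900 bp, and 7 of the 14 longer members. The largest value was that of Cox8a, described with its partner below, followed among members of at least 5 CPM by Cox6a1 and Atp5e. Atp5e, the epsilon subunit of the F1 shaft, had 360.1, 235 and 278 CPM in P90 CTRL and 437, 459 and 302 CPM in P90 KO. Its lowest KO library was below the highest CTRL library (0.46 ± 0.18, SE, adjusted p = 0.237). The lowest values were those of Uqcrc1 (-0.14 ± 0.094, SE), Uqcrfs1 (-0.12 ± 0.10) and Atp5s (-0.10 ± 0.10).

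Uqcrc1 had 4046, 3971 and 4429.9 CPM in P90 CTRL and 4016, 3515 and 3684 CPM in P90 KO. In the same order of groups, Uqcrfs1 had 1948, 1972 and 1943 CPM and 2033, 1731 and 1619 CPM, and Atp5s had 51.3, 57.3 and 50.0 CPM and 52.7, 46.6 and 47.4 CPM. In all 3 the groups overlapped and the adjusted p was 0.478 or more. Cyc1 had 2186, 2035 and 2197 CPM in P90 CTRL and 2266, 1936 and 1786 CPM in P90 KO, and Cycs 519, 458 and 479 CPM and 554, 451 and 419.6 CPM. Both overlapped, with log2 fold changes of -0.094 ± 0.10 and -0.025 ± 0.12 (SE, adjusted p = 0.701 and 0.94).

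The difference between the stages was tested directly, as the neonatal minus the adult log2 fold change in a fit of all 12 libraries. It was negative for 43 of 43 members (median -0.79, against -0.0051 over all genes). By edgeR 2 members passed downwards, Atp5c1 (-0.66 ± 0.15, SE, adjusted p = 0.0454) and Uqcrc2 (-0.66 ± 0.15, SE, adjusted p = 0.0487), and 0 upwards, where 0.958% of all genes passed downwards and 0.818% upwards. At an unadjusted p under 0.05 there were 37 downwards and 0 upwards, against 2440 of all 12841 genes in either direction. DESeq2 called 23 downwards and 0 upwards, against 6.24% of all genes downwards. The edgeR count was 0 in 9 of 12 fits that left out 1 library (any P14 KO library, any P90 CTRL library, P90 KO library 1 or 2, or P14 CTRL library 2). In those 9 fits between 1 and 58 of all genes passed downwards, against 123 with all 12 libraries. The count of members was 9 without P14 CTRL library 1 and 5 without P90 KO library 3, both with Atp5c1 and Uqcrc2 among them, and 10 without P14 CTRL library 3, with neither. Over all genes 231, 162 and 205 passed downwards in these fits, in the same order. In the length-corrected fit both genes passed, the median was -0.31 and 6 of 43 members changed sign.

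At P90 Atp5c1 had 2263, 2288 and 2339 CPM in CTRL and 2658, 2356 and 2131 CPM in KO, and Uqcrc2 1326, 1286 and 1302 CPM and 1359, 1313 and 1189 CPM. For both genes the P90 groups overlapped, while every P14 KO library was below every P14 CTRL library. Their adult log2 fold changes were 0.058 ± 0.10 and -0.014 ± 0.090 (SE).

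Cox6a, Cox7a and Cox8 of complex IV are each made in a muscle form and a widely expressed form, and the balance within these pairs was followed in every library. Their promoters are shown because nuclear genes for respiratory subunits are known to share promoter motifs. The stretches from 250 bases before to 50 bases after the RefSeq start are given for 5 of the 6 paired genes and for Cycs. Capitals mark GCATGCGC, a form of the nuclear respiratory factor NRF1 site, and CCGGAAG, a site for ETS family factors such as GABP, on either strand. All are in GRCm38.p6, 5′ to 3′ on the strand of the gene: Cox7a1 (chr7:30183921-30184220, plus strand), Cox7a2 (chr9:79759804-79760103, minus strand), Cox8b (chr7:140900397-140900696, minus strand), Cox8a (chr19:7217567-7217866, minus strand), Cox6a1 (chr5:115348909-115349208, minus strand) and Cycs (chr6:50566520-50566819, minus strand).
Cox7a1: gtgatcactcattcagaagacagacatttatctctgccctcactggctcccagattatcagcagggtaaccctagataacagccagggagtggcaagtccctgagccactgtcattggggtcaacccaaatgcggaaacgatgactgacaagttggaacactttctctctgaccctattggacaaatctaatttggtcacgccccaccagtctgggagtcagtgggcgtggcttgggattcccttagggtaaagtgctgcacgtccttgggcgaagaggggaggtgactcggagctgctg
Cox8b: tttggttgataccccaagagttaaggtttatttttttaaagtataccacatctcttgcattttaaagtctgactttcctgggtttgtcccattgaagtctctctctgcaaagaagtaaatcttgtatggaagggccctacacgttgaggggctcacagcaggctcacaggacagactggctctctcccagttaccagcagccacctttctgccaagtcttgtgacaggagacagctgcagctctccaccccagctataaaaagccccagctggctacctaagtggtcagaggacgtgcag
Cox7a2: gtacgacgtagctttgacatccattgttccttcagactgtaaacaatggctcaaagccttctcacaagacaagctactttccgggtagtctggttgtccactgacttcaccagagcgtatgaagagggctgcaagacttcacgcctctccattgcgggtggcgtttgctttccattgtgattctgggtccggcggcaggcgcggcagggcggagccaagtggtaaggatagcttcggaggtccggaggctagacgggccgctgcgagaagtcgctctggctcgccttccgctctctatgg
Cox8a: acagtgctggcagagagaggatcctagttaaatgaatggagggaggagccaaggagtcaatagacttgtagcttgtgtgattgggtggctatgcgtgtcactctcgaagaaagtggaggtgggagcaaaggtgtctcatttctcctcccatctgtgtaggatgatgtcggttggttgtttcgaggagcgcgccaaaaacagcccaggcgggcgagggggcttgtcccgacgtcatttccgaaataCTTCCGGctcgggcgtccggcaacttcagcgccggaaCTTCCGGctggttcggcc
Cox6a1: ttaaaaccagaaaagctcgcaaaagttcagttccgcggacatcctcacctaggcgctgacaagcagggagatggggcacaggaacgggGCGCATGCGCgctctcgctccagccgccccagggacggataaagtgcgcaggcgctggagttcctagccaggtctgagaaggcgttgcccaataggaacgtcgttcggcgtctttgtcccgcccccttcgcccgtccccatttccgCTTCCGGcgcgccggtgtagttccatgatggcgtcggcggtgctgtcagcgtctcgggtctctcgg
Cycs: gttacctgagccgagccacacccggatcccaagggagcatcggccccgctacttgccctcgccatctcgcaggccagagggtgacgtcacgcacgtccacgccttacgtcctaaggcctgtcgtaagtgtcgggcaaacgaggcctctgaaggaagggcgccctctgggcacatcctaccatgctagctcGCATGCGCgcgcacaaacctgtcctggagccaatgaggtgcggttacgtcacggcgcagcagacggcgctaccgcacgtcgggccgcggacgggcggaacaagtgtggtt

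The muscle forms Cox7a1 and Cox8b held neither motif in this window, and nor did the widely expressed Cox7a2. Cox8a held CCGGAAG at 2 places and Cox6a1 held it once, beside GCATGCGC, which matched on both strands in overlapping positions. Cycs held GCATGCGC once. A match is only a run of letters and was not measured as a site.

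In CTRL CMs 2 muscle forms rose and 1 widely expressed form fell between P14 and P90. Cox6a2, the heart and muscle form of subunit VIa (chr7:128205435-128206366), had 1145, 1696 and 935 CPM at P14 and 2931, 1836 and 2278 CPM at P90. Every P90 library was above every P14 library, and Cox6a2 rose by 0.90 ± 0.23 (SE, log2, adjusted p = 0.0187). Its widely expressed partner Cox6a1 (chr5:115345654-115348955) had 155, 207 and 111 CPM at P14 and 118, 72.1 and 79.9 CPM at P90, where the groups overlapped by 1 library each, and it fell (log2 fold change -0.80 ± 0.24, SE, adjusted p = 0.0359).

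Cox7a1, the muscle form of subunit VIIa (chr7:30184171-30186030), had 250.2, 452 and 166 CPM at P14 and 921, 597 and 611 CPM at P90. The groups did not overlap and it rose by 1.30 ± 0.33 (SE, log2, adjusted p = 0.0173). Its partner Cox7a2 (chr9:79755241-79759853) had 436, 651 and 347 CPM at P14 and 655, 503 and 520.1 CPM at P90, which overlapped (0.23 ± 0.21, SE, adjusted p = 0.442). Cox8b, the muscle form of subunit VIII (chr7:140898942-140900446), had 263, 438 and 162 CPM at P14 and 662, 417 and 465 CPM at P90, with an overlap of P14 library 2 only (0.84 ± 0.32, SE, adjusted p = 0.0745). Cox8a, its partner (chr19:7215158-7217616), had 146, 198 and 107 CPM at P14 and 149.6, 102 and 112 CPM at P90, which overlapped (-0.30 ± 0.22, SE, adjusted p = 0.327).

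Per kilobase of exon, Cox6a2 was 6.45 times as abundant as Cox6a1 in P14 CTRL and 21.1 times in P90 CTRL. For Cox7a1 over Cox7a2 the values were 1.25 and 2.62, and for Cox8b over Cox8a 2.88 and 6.37. In P14 KO the 3 values were 3.16, 0.736 and 1.08, and in P90 KO 19.3, 2.43 and 4.61, in the same order of pairs. The log2 ratio of the paired CPM values (with 1 CPM added to each) compares the forms within a library, so that a shift shared by both genes drops out. It went from 2.99 ± 0.096 to 4.70 ± 0.11 (SD, n = 3) for Cox6a2/Cox6a1, from -0.80 ± 0.27 to 0.32 ± 0.15 for Cox7a1/Cox7a2 and from 0.86 ± 0.28 to 2.07 ± 0.063 for Cox8b/Cox8a. None of the 3 ratios overlapped between stages, and each had an exact permutation p of 0.1 (two-sided), the smallest that 3 against 3 allows, with an adjusted p of 0.218 over 24 tests.

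**Figure D4:**
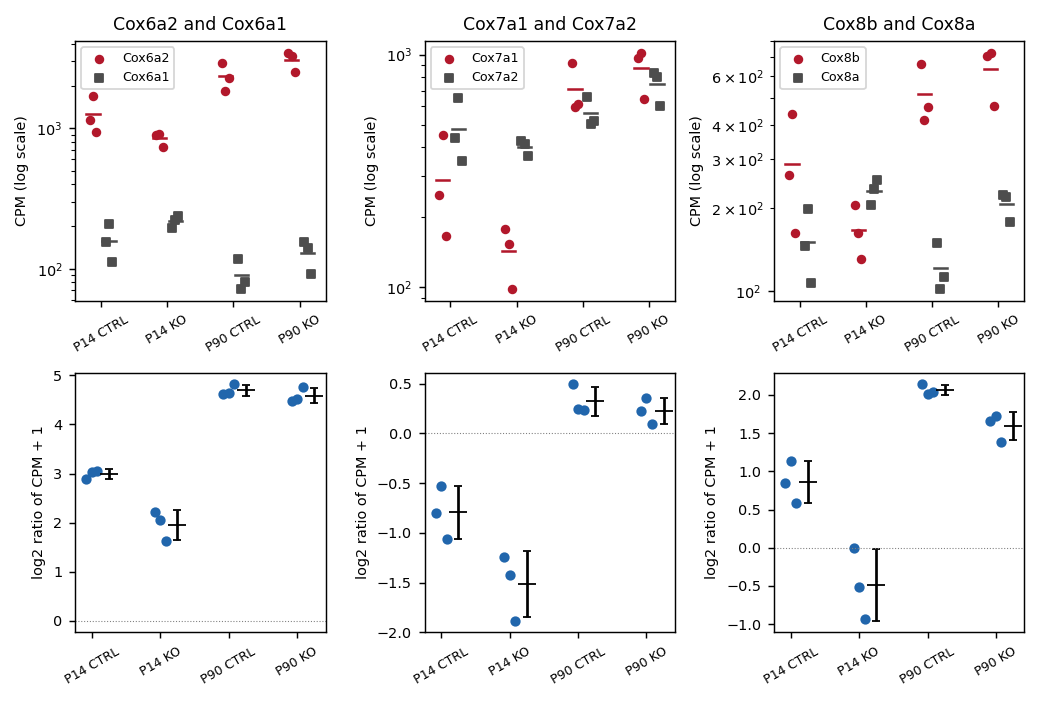
Upper row: CPM (log scale) of the muscle form (red circles) and the widely expressed form (grey squares) of 3 complex IV subunits in each library, with group means as lines. Lower row: log2 ratio of the forms (CPM + 1) in each library, with the mean ± SD of 3 libraries beside them. In P14 KO all 3 ratios are below P14 CTRL without overlap, and at P90 the ratios of KO and CTRL overlap for Cox6a2/Cox6a1 and Cox7a1/Cox7a2.

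In P14 KO the 2 kinds of form had values of opposite sign for 2 of the pairs. Cox6a2 had 901, 918 and 732 CPM in P14 KO, all below the lowest CTRL library, with a log2 fold change of -0.57 ± 0.22 (SE, adjusted p = 0.143). Cox6a1 had 194, 221 and 238 CPM, and only its lowest library lay inside the CTRL range (0.46 ± 0.21, SE, adjusted p = 0.211). Cox8b had 205, 163 and 131 CPM, overlapping CTRL (-0.80 ± 0.33, SE, adjusted p = 0.172). Cox8a had 205, 234 and 252 CPM, above every CTRL library (0.61 ± 0.21, SE, adjusted p = 0.11).

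None of these 4 genes passed in the edgeR fit, but the widely expressed forms did elsewhere. Without P14 CTRL library 2 Cox8a was at 0.86 (adjusted p = 0.0217) and Cox6a1 at 0.71 (adjusted p = 0.0379). In the length-corrected fit they were at 0.92 and 0.78 (adjusted p = 0.00897 and 0.0126), and with DESeq2 Cox8a had an adjusted p of 0.0433 and Cox6a1 0.171. The adjusted p ranged from 0.00897 to 0.272 over 13 alternative settings for Cox8a, past the threshold in 5, and from 0.0126 to 0.422 over 13 alternative settings for Cox6a1, past it in 3. Cox7a1 had 178, 153 and 98.4 CPM in P14 KO, overlapping CTRL, and Cox7a2 423, 412 and 366 CPM, also overlapping. Their log2 fold changes were -1.02 ± 0.36 and -0.26 ± 0.21 (SE, adjusted p = 0.117 and 0.5). Cox7a1 passed with DESeq2 (adjusted p = 0.0169) and was at -0.54 without P14 CTRL library 2 in edgeR (adjusted p = 0.252), with a range of 0.0169 to 0.328 over 13 alternative settings.

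Within libraries the ratios of KO and CTRL separated for all 3 pairs. The Cox6a2/Cox6a1 log2 ratio was 2.88, 3.03 and 3.06 in the P14 CTRL libraries and 2.21, 2.05 and 1.62 in P14 KO, a difference of -1.03. The Cox8b/Cox8a ratio was 0.85, 1.14 and 0.59 in CTRL and -0.0034, -0.52 and -0.94 in KO, a difference of -1.35, with nearly equal CPM of the forms in KO library 1, more of Cox8a in KO libraries 2 and 3, and more of Cox8b in all CTRL libraries. The Cox7a1/Cox7a2 ratio was -0.80, -0.53 and -1.06 in CTRL and -1.24, -1.43 and -1.88 in KO, a difference of -0.72. In each pair every KO library was below every CTRL library, and the exact permutation p was 0.1, with an adjusted p of 0.218 over 24 tests. P14 CTRL library 2 lay between the others for Cox6a2/Cox6a1 and was the highest of its group for the other pairs. The differences were -1.01, -1.21 and -0.59 without it, and -1.07, -1.27 and -0.58 on length-corrected CPM, in the order Cox6a2/Cox6a1, Cox8b/Cox8a and Cox7a1/Cox7a2. None of the 6 genes has a near-identical copy elsewhere at 95% identity over 75 bases, and 10.5% of the Cox6a2 exons overlap Itgad on the opposite strand.

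At P90 the differences in ratio were smaller. Cox6a2 had 3467, 3251 and 2513 CPM in P90 KO and Cox6a1 154, 141 and 91.7 CPM. Both overlapped CTRL, with log2 fold changes of 0.40 ± 0.17 and 0.52 ± 0.21 (SE, adjusted p = 0.274 and 0.252). Their log2 ratio averaged 4.70 ± 0.11 over the 3 CTRL libraries and 4.59 ± 0.15 over the 3 KO libraries (± SD, exact permutation p = 0.4). Cox7a1 had 969, 1020.4 and 646 CPM and Cox7a2 831, 799 and 604 CPM in P90 KO, and their log2 ratio averaged 0.32 ± 0.15 over CTRL libraries and 0.22 ± 0.13 over KO libraries (± SD, n = 3, exact permutation p = 0.4). Both genes overlapped CTRL (0.31 ± 0.19 and 0.42 ± 0.14, SE).

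Cox8b and Cox8a were the pair in which P90 KO stood apart. Cox8a had 149.6, 102 and 112 CPM in P90 CTRL and 224, 219 and 177 CPM in P90 KO, where every KO library was above every CTRL library. Its log2 fold change of 0.77 ± 0.15 (SE) just missed the threshold (adjusted p = 0.0531). DESeq2 gave an adjusted p of 8.89e-05 and the length-corrected fit a value of 0.51 (adjusted p = 0.0248), and the range was 2.81e-09 to 0.225 over 12 alternative settings, past the threshold in 6. Cox8b had 709, 729 and 466 CPM in P90 KO, overlapping CTRL (0.31 ± 0.19, SE, adjusted p = 0.458). The Cox8b/Cox8a ratio was 2.14, 2.02 and 2.04 in P90 CTRL and 1.66, 1.73 and 1.39 in P90 KO, a difference of -0.47 with no overlap (exact permutation p = 0.1).

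Whether the ratios changed by different amounts at the 2 stages was tested by an exact permutation of genotype within each stage (400 arrangements), which was added after the values had been seen. The neonatal minus the adult difference was -0.92 for Cox6a2/Cox6a1 (p = 0.085), -0.62 for Cox7a1/Cox7a2 (p = 0.135) and -0.87 for Cox8b/Cox8a (p = 0.225), and the adjusted p over 8 ratios was 0.54 or more by this exact permutation test. The smallest p this test allows is 0.005.

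The other paired forms included genes near the limit of detection. Cox4i2, a form known from lung, had 1.17, 0.450 and 0.761 CPM in P14 CTRL and 0.958, 1.44 and 0.556 CPM in P14 KO, where Cox4i1 had 1268, 1282 and 1093 CPM. Cox6b2, a form known from testis, had 0.704, 1.05 and 0.819 CPM in P14 CTRL and 0.372, 0.766 and 0.354 CPM in P14 KO, and 1.91, 1.52 and 1.42 CPM in P90 CTRL and 3.20, 3.55 and 1.43 CPM in P90 KO, with overlap at both stages. The Cox4i2/Cox4i1 log2 ratio was -9.61, -10.70 and -9.83 in P14 CTRL and -9.34, -9.04 and -9.46 in P14 KO, a difference of 0.77 without overlap (exact permutation p = 0.1, the smallest that 3 against 3 allows, 0.218 after Benjamini-Hochberg adjustment over 24 tests). Without P14 CTRL library 2 the difference was 0.44. Of the summed reads per kilobase of the c ring genes in P14 CTRL, Atp5g3 gave 79.3% ± 1.86 (SD, n = 3), Atp5g1 20.2% ± 1.93 and Atp5g2 0.485% ± 0.070. In P90 CTRL the Atp5g1 share was 29.1% ± 1.90, above P14 in every library (exact permutation p = 0.1). Between KO and CTRL the Atp5g1 share differed by -1.74 percentage points at P14 and -1.21 at P90, with overlap at both stages (exact permutation p = 0.3 and 0.5). Stretches of the longest annotated coding transcript of Atp5g1 (4715 bp) match 50 other genes over 20% of its length. The counted exons total 868 bp. Whether the matches lie in them was not tested, so the Atp5g1 share is uncertain.

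Over the whole family few members were called between P14 and P90 in CTRL CMs. By edgeR 3 members rose (Cox7a1, Cox6a2 and Atp5s, the last by 0.61 ± 0.15, SE, adjusted p = 0.016) and 2 fell (Cox6a1 and Atp5l, the last by a log2 fold change of -0.86 ± 0.22, SE, adjusted p = 0.0182), where 14.5% of all genes tested were called higher and 14.9% lower. The median was 0.23, against -0.012 over all genes, and the medians by complex ran from 0.080 for F1 to 0.29 for the membrane part and stalks. P14 and P90 did not overlap for 5 members higher and 1 lower at P90, against 22.1% and 22.8% of all genes. This comparison uses the CTRL libraries of both KO comparisons, so their values are not independent of it.

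The counts between stages depended on single libraries. Without P14 CTRL library 2, 22 members were called higher and 1 lower, and the length-corrected fit without it, which was added after the values had been seen, called 19 higher and 5 lower. Of all 12490 genes the first of these fits called 2338 higher and 2430 lower, and the second 2455 higher and 2366 lower. With all 6 libraries 1779 of 12294 genes were called higher and 1828 lower. Without P14 CTRL library 1 the counts of members were 0 and 0, without P90 CTRL library 1 they were 0 higher and 2 lower, and without P90 CTRL library 2 or 3 they were 2 higher and 0 lower. Without P14 CTRL library 1, 1231 of all 12334 genes were still called higher and 1069 lower. Without P90 CTRL library 1, 2 or 3 the counts over all genes were 1108, 1298 and 1177 higher and 959, 1182 and 959 lower. Cox6a2 and Cox7a1 were called higher in the length-corrected fit too, where 6 members were higher and 4 lower, against 1927 and 1909 of all 12294 genes.

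Other genes that build these complexes were counted from a list of assembly factors, chaperones and late-named subunits. Of 42 listed symbols 29 were in the tables and 28 were tested. In P14 KO 7 of 28 fell and 0 rose by edgeR, where 4.60% of all genes tested were called lower and 3.99% higher. The median was -0.52 and 27 of 28 were negative. At an unadjusted p under 0.05 there were 17 lower and 0 higher, against 3206 of all 12546 genes in either direction. DESeq2 called 12 lower and 0 higher, where it called 7.89% of all genes lower. The largest falls were in Tmem70, which helps to assemble ATP synthase (-0.96 ± 0.22, SE, adjusted p = 0.0342), Cox11, a copper chaperone of complex IV (-0.76 ± 0.18, adjusted p = 0.0399), and Cox10, which makes heme for complex IV (-0.72 ± 0.11, adjusted p = 0.0121). Next were Lrpprc, which stabilises mitochondrial mRNAs (-0.69 ± 0.13, SE, adjusted p = 0.0216), Bcs1l, which inserts the Rieske protein that Uqcrfs1 encodes into complex III (-0.69 ± 0.13, adjusted p = 0.0196), and Uqcc, a complex III assembly factor (-0.69 ± 0.12, adjusted p = 0.0157).

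In P90 KO 0 of 28 passed in either direction by edgeR, where 0.152% of all genes tested were called lower and 0.237% higher. The median was 0.021. At an unadjusted p under 0.05 there were 3 lower and 2 higher, against 1910 of all 11808 genes in either direction. DESeq2 called 0 lower and 1 higher, against 184 lower and 167 higher of 8910 genes. The neonatal minus adult difference was negative for 28 of 28 and passed by edgeR for Uqcc alone (-0.63, adjusted p = 0.0478). Over all genes 0.958% passed downwards and 0.818% upwards. At an unadjusted p under 0.05 there were 19 downwards and 0 upwards, against 2440 of all 12841 genes in either direction. DESeq2 called 6 downwards and 0 upwards, against 6.24% of all genes downwards. Between CTRL P14 and P90 5 of 28 rose and 1 fell, a share of rises near the 14.5% of all genes called higher and of falls under the 14.9% called lower. Atpaf1, which brings the beta subunit into the F1 head, rose by 1.18 ± 0.13 (SE, log2, adjusted p = 0.000435), Lyrm7, a chaperone of the Rieske protein, by 0.98 ± 0.20 (adjusted p = 0.00641) and Ttc19, which acts late in complex III assembly, by 0.71 ± 0.15 (adjusted p = 0.00948). Uqcc and Sco1, a copper chaperone, also rose, and Taco1, which promotes translation of a mitochondrially encoded subunit of complex IV, fell (-0.78 ± 0.14, SE, adjusted p = 0.00394).

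Promoter windows were at hand for 35 of the 45 genes, and none for Cox6a2, Cyc1, Uqcrc2 and 7 others. A gene was counted when any of its windows held the motif. GCATGCGC stood in 7 of the 35 (20%), against 3.05% of all 27025 genes with a window and 3.94% of the protein-coding ones. CCGGAAG stood in 10 of 35 (28.6%), against 9.93% and 12.9%. AAGGTCA, a site form for estrogen-related receptors, stood in 4 of 35 (11.4%), against 5.38% and 4.73%, and AAGATGG, a site for YY1, in 5 of 35 (14.3%), against 7.28% and 7.18%. The CArG box, to which SRF binds (CC, then 6 bases of A or T, then GG), stood in 0 of 35, against 1.81% of all genes with a window, which says only that these letters are not within the windows searched. Of the members that fell in P14 KO and had a window, Cycs and Uqcrc1 held GCATGCGC, Atp5f1 held AAGATGG and Atp5g3 held AAGGTCA, and the other 5 held none of these motifs. The motifs were searched on both strands, and no test was made.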

How the data were processed

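The files hold raw read counts per gene for 12 samples of sorted mouse CMs, 3 in each of 4 groups, with the P14 and P90 libraries in separate tables. To make these counts the authors, per the labels' processing notes and the study's methods, called bases with CASAVA 1.8, aligned reads to mm10 with STAR 2.5.3a and assigned them to genes with featureCounts (Subread 1.5.2). Strand setting and treatment of reads with several matches are not given in the sources used here. Each gene's summed exon length in bp, another deposited value, was used for levels per kilobase and for the length correction.

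The counts were tested with edgeR 4.0.16 (R 4.3.3): filterByExpr, TMM scaling, quasi-likelihood F-tests within each stage's 6 libraries, between the CTRL groups and, over all 12, for the difference between stages, with Benjamini-Hochberg adjustment over all genes tested and a threshold of 0.05. CPM per library use TMM scaling over the 12 libraries. Isoform ratios were taken as log2 of CPM + 1 and compared by exact two-sided permutation tests. Alternatives were DESeq2 1.42.0, RLE size factors, no filter, a replicate block, all 12 libraries in 1 fit, each library left out, a pseudocount of 0.5 for the ratios, and a length correction (lowess of each library's deviation on log2 exon length, span 0.3). The length correction without P14 CTRL library 2, the sums of CPM without it and the test of ratios between stages were added after the data had been seen. Scripts were tested on simulated data. Members and lists were chosen with earlier results of these data known. Every member is counted. Per-library values are given for the paired forms, Cyc1 and Cycs, the 3 highest and 3 lowest members of at least 5 CPM in each KO comparison, and, chosen after their values were seen, for Uqcrfs1, Uqcrc1, Uqcrc2, Atp5c1, Cox5a and Atp5g1 in the neonatal comparison, with Atp5c1 and Uqcrc2 also at P90. Of the assembly list up to 6 called genes are named by size. Promoters are RefSeq windows on GRCm38.p6, and near-identical stretches were found with BLAST+ 2.17.0 on GENCODE M21 transcripts (95% identity, 75 bases). Intervals from counts cover counting error only.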

Additional observations from a re-analysis of the deposited data

Results flagged for a closer look

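The response to Srf loss differed between the stages for 2 members by the interaction term of edgeR's quasi-likelihood test. Atp5c1, the gamma subunit of ATP synthase, had a neonatal minus adult log2 difference of -0.66 ± 0.15 (SE, adjusted p = 0.0454), with every P14 KO library below every P14 CTRL library and overlapping libraries at P90. Uqcrc2, a core protein of complex III, had a difference of -0.66 ± 0.15 (SE, adjusted p = 0.0487) with the same order of libraries. Both calls were lost without P14 CTRL library 2, any P14 KO library, any P90 CTRL library or P90 KO library 1 or 2, and without P14 CTRL library 3. Over all genes 205 passed downwards without P14 CTRL library 3 and between 1 and 58 in the other fits named here, against 123 with all 12 libraries.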

How the results depend on the processing

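Counts of called members were the least stable values. Counts over all genes moved too. In P14 KO 577 genes were called lower in the reported fit, 1000 with DESeq2 and 1163 with all 12 libraries in 1 fit. Called higher there were 501 in the reported fit, 788 with DESeq2 and 925 with all 12 libraries in 1 fit. With the length correction 587 were called higher, and 511 when P14 CTRL library 2 was also left out. In P90 KO 28 were called higher, and 167 with DESeq2, 49 with the length correction and 358 without the filter. For the difference between stages 123 were called lower, and 606 with DESeq2, 171 with RLE size factors and 307 without the filter. In P14 KO the 12 lower calls became 21 with DESeq2 and 20 with all 12 libraries in 1 fit, and the 0 higher calls became 1, 1, 2 and 2 with DESeq2, all 12 libraries, the length correction and the length correction without P14 CTRL library 2. Leaving out 1 library in turn gave 0 to 15 lower and 0 to 2 higher. In P90 KO the 0 higher calls became 1 with DESeq2, 1 with the length correction and 7 without the filter, and 0 to 1 with a library left out. For the difference between stages the 2 lower calls became 23 with DESeq2, 4 with RLE size factors and 19 without the filter, and 0 to 10 with a library left out. Between CTRL stages the 3 higher and 2 lower calls became 6 and 4 with the length correction and 19 and 5 when P14 CTRL library 2 was also left out, 5 higher without the filter, and 0 to 22 higher and 0 to 2 lower with a library left out.

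With the length correction the median log2 fold change was -0.44 for F1 in P14 KO (-0.44 without P14 CTRL library 2, where the membrane part and stalks stood at -0.27). In P90 KO it was -0.086 for complex III, -0.025 for the membrane part and stalks and -0.022 over all members. For the difference between stages it was -0.31 for complex IV, -0.48 for F1, -0.29 for the membrane part and stalks and -0.31 over all members. With 1 library left out the medians ran from -0.63 to -0.47 for F1 in P14 KO, from -0.058 to 0.22 for complex III in P90 KO and from -0.73 to -0.55 for F1 between stages. Among the isoform ratios 3 values turned: the Cox6b2/Cox6b1 ratio in P14 KO was -0.0098 with the length correction and -0.059 also without P14 CTRL library 2, and the Cox4i2/Cox4i1 ratio in P90 KO was -0.044 without P90 KO library 3 (up to 0.33 with another library left out). Of the members' single-gene values under these settings 1970 kept sign and side of the threshold, 82 changed sign and were called in neither fit, 182 passed only under the alternative and 84 only in the reported fit. The cause of these shifts was not tested. The 3 muscle to widely expressed ratios kept their direction in all 3 comparisons under every setting run.

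With the replicate number of the titles as a block, 17 members were called lower in P14 KO (11 of the 12 among them), against 812 of all 12546 genes. In P90 KO 6 members were higher, against 315 of 11808 genes, and 15 were lower between stages, against 405 of 12841. The replicate numbers were not taken to pair the samples, and the correlations leave this uncertain. Deviations of same-numbered CTRL and KO libraries correlated at 0.074, 0.152 and 0.394 at P14 and at 0.271, 0.023 and 0.084 at P90, all positive. Those of differently numbered libraries had both signs, from -0.257 to 0.145 at P14 and from -0.332 to 0.217 at P90. Not every library correlated best with its own number.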
